A study of Mus musculus with 34 samples.

Results

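SMAD4 binding in Kupffer cell nuclei was set against SMAD4 binding in bone marrow-derived macrophages (BMDM) with chromatin immunoprecipitation and sequencing (ChIP-seq), which recovers the DNA that a protein sits on. The comparison rests on 4 of the 34 samples of the series: 2 SMAD4 libraries of Kupffer cell nuclei, labelled untreated and taken from Clec4f-cre mice, and 2 SMAD4 libraries of BMDM, labelled untreated, from C57BL/6J mice after 4 days of culture in vitro. Both groups were precipitated with the same pair of SMAD4 antibodies, 1 ug of each. In Clec4f-cre mice the control elements of Clec4f, a gene that marks Kupffer cells, drive the Cre recombinase. The labels do not describe the allele, and the BMDM carry none, so its part in the values at Clec4f was not tested. The whole deposited peak lists entered, and a peak was taken as reproducible where a peak of both libraries of its group overlapped by 1 bp or more. This gave 18593 reproducible peaks in Kupffer cell nuclei and 16969 in BMDM. The histone mark H3K27ac, which active enhancers and promoters carry, served as a second readout. It was measured in untreated Kupffer cells and Ly6C-high blood monocytes, both labelled C57BL/6J, and in RLM, macrophages that refill the liver, taken 24 h after mice of the genotype Clec4f-cre/Rosa26iDTR had received diphtheria toxin, which kills their Cre-expressing Kupffer cells. For the acetylation libraries of Kupffer cells the series' design text names Clec4f-Cre/DTR mice instead, and which of these holds could not be settled from the sources used here. H3K27ac in BMDM from C57BL/6J mice after 4 days of culture, untreated or given the Notch ligand DLL4 for 24 h, was counted in a table of its own. Peak lists of 2 other factors were set beside the sites: RBPJ in untreated Clec4f-cre Kupffer cell nuclei and in untreated C57BL/6J BMDM at 4 days, and LXR in untreated Clec4f-cre Kupffer cells.

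SMAD4 is the partner that SMAD proteins share. Ligands of the TGF-beta and BMP families bind pairs of receptor kinases, which phosphorylate SMAD2 and SMAD3 or SMAD1, SMAD5 and SMAD9. These then join SMAD4, move to the nucleus and bind DNA together with the factors that already hold the cell type's enhancers open. Kupffer cells are the resident macrophages of the liver, and TGF-beta and BMP signals from neighbouring cells are part of what keeps their identity, with Id1 and Id3 among the best-known responding genes. BMDM are grown in a dish from bone marrow progenitors and lack the liver's surroundings.

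The 4 lists hold 37180 and 25369 peaks in Kupffer cell nuclei and 37103 and 28593 in BMDM. Both Kupffer cell libraries were deeper, with 18.9M and 18.0M tags against 11.1M and 13.9M in BMDM, and the part of depth in the peak lists was not tested. Peaks held 9.46% and 11.7% of the tags in Kupffer cell nuclei but 18.1% and 14.7% in BMDM. The median fold over input was 24.7 and 33.7 in Kupffer cell nuclei and 12.3 in each BMDM library. Library names in the file headers give the 2 Kupffer cell libraries different dates and both BMDM libraries another one. Date and cell type therefore cannot be told apart. The header names give the strain of the Kupffer cell nuclei as C57B6J where the labels say Clec4f-cre. They also name the library labelled replicate 2 of Kupffer cell nuclei as replicate 1, and the numbers used here are those of the labels. The Kupffer cell libraries are labelled as nuclei and those of BMDM are not, so preparation and cell type cannot be told apart either. Nothing in the labels ties replicate libraries to different mice or dishes, and p-values therefore cover only the spread from library to library, which may be technical. Strength below is the deposited Normalized Tag Count, the tags in a peak per 10M tags of its library. Between replicates the log2 strengths of reproducible peaks correlated across peaks at r = 0.599 in Kupffer cell nuclei and 0.590 in BMDM, and replicate 2 of the Kupffer cell nuclei lay 0.681 higher than replicate 1 at the median on the log2 scale. Peaks are not independent replicates, so these are descriptions.

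The 6 promoters below are shown because SMAD4 sat on each of them and because they stand for the 3 patterns described here: shared binding at genes of the SMAD pathway itself (Smad6 and Tgfbr1), binding in Kupffer cell nuclei without a BMDM peak at genes that mark Kupffer cells (Clec4f, Timd4 and Cd38), and the reverse (Cx3cr1). Each is printed 5′ to 3′ on the gene's own strand from 250 bases before the start to 10 bases after it, read from the RefSeq promoter table (GRCm38.p6, the same assembly as mm10). Capitals mark letters that match GTCTAGAC, CAGAC or GGCGCC on either strand, all known forms of SMAD binding elements.
Smad6 (chr9:64022050-64022309, minus strand): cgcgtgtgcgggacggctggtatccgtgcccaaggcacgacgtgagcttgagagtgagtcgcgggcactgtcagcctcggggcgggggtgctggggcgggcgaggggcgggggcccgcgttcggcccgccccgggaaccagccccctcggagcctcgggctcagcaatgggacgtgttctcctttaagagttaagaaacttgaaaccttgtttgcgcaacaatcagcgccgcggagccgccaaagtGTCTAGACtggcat
Tgfbr1 (chr4:47352972-47353231, plus strand): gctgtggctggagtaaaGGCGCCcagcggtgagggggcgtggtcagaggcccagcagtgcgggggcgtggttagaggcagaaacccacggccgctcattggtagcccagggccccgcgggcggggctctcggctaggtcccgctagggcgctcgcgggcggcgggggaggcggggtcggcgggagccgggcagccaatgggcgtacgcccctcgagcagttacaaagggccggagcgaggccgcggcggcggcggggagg
Clec4f (chr6:83656107-83656366, minus strand): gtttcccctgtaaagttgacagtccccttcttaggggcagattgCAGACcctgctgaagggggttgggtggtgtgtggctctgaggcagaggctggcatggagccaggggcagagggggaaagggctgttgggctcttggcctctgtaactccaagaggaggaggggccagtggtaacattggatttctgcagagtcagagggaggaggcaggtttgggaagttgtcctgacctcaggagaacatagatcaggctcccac
Timd4 (chr11:46810549-46810808, plus strand): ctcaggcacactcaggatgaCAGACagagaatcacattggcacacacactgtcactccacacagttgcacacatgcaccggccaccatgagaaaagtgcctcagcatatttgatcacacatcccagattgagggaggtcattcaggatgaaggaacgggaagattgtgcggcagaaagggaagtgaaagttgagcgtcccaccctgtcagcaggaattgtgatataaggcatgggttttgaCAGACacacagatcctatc
Cd38 (chr5:43868559-43868818, plus strand): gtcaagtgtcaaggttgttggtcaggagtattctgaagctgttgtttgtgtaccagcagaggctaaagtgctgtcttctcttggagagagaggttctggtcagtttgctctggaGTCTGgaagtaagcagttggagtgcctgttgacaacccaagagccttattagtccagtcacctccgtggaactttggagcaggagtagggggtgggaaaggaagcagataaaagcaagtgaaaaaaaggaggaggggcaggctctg
Cx3cr1 (chr9:120068287-120068546, minus strand): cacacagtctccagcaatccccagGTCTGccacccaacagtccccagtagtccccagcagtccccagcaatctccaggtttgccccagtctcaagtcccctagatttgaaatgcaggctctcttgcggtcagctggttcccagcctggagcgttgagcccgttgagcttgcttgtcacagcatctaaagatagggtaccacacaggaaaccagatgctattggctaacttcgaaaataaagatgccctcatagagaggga

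At Smad6, which encodes an inhibitory SMAD, the palindrome GTCTAGAC begins 4 bases upstream of the start and runs across it, and the peak centre lay 8 bases upstream with 368 and 510.0 tags in Kupffer cell nuclei and 672 and 705 in BMDM. At Tgfbr1, a TGF-beta receptor kinase, 1 GGCGCC begins 233 bases upstream, and the peak over the start held 145 and 86.5 against 79.9 and 80.4 tags. Both promoters had a peak in all 4 libraries, and neither passed the test of strength given below. Clec4f has 1 CAGAC beginning 206 bases upstream, and its promoter peak held 21.1 and 52.1 tags in Kupffer cell nuclei. Timd4, a receptor for dying cells, has CAGAC at 230 and 9 bases upstream and a peak of 32.7 and 74.3 tags. Cd38, an enzyme on the cell surface that consumes NAD, has 1 match in reverse at 136 bases upstream and a peak of 22.2 and 30.5 tags. None of these 3 peaks overlapped a peak of either BMDM library. At Cx3cr1, the fractalkine receptor of monocytes, the peak held 130.1 and 118 tags in BMDM, no Kupffer cell peak overlapped it, and 1 match begins 226 bases upstream. GGAAGT, the core of the site of PU.1, the pioneer factor of macrophages, begins 33 bases upstream of Clec4f, 72 of Timd4 and 132 of Cd38, where it shares a base with the SMAD match. The Smad6 palindrome and the GGAAGT of Clec4f and Timd4 lie inside the called peaks, the nearer CAGAC of Timd4 touches the edge of its peak, and the other matches lie outside them.

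By overlap of reproducible peaks, Kupffer cell nuclei and BMDM shared many SMAD4 sites and each had others without a peak in the other group. Of the Kupffer cell peaks, 8137 (43.8%) overlapped a reproducible BMDM peak, 5337 (28.7%) overlapped no peak of any BMDM library, and the other 5119 met only BMDM peaks that were not reproducible. Of the BMDM peaks, 8136 (47.9%) were shared, 4817 (28.4%) had no Kupffer cell peak, and 4016 met only Kupffer cell peaks that were not reproducible. Peaks without any overlap are called Kupffer cell-only and BMDM-only below. A missing peak means that none passed the authors' thresholds there, not that SMAD4 was absent, and 953 (17.9%) of the Kupffer cell-only and 550 (11.4%) of the BMDM-only peaks had a peak of the other group within 500 bp. With only peaks at 8-fold or more over input, BMDM kept 9882 reproducible peaks and the shared part of the Kupffer cell peaks was 28.9%. With replicate 1 of BMDM standing alone for its group, 37103 peaks entered and 31.3% of them were shared, as were 62.4% of the Kupffer cell peaks. With replicate 1 of Kupffer cell nuclei standing alone, 66.8% of the BMDM peaks and 30.5% of the 37180 Kupffer cell peaks were shared. With a gap of up to 500 bp taken as overlap, chosen after seeing the data, the shares were 47.6% of Kupffer cell and 51.4% of BMDM peaks.

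**Figure D1:**
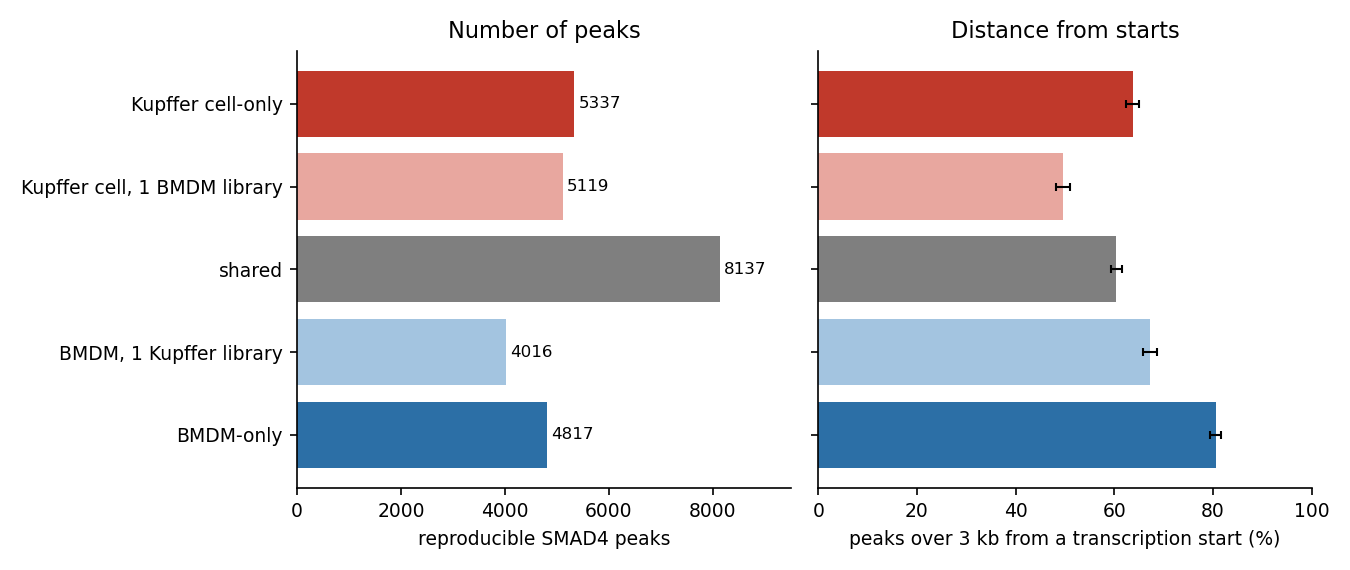
Number of reproducible SMAD4 peaks in each overlap class (left, horizontal bars, count of peaks) and the share of them over 3 kb from a transcription start (right, percent, with exact binomial 95% intervals that cover counting error only). Shared sites are the most numerous class at 8137, and BMDM-only sites are the most distal at 80.5%.

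The Kupffer cell-only sites lay nearer to transcription starts than the BMDM-only sites. Over 3 kb from the nearest start lay 63.7% of the Kupffer cell-only peaks (exact binomial 95% interval 62.4 to 65.0), 60.4% of the shared peaks (59.3 to 61.5) and 80.5% of the BMDM-only peaks (79.3 to 81.6). Within 1 kb of a start lay 30.4%, 32.1% and 10.8% of them in the same order. The median distance was 11.1 kb for Kupffer cell-only, 7.50 kb for shared and 16.8 kb for BMDM-only peaks. Neighbouring peaks are not independent and the intervals cover counting error only, but the order of the 2 group-only classes was the same with each single library in place of its group.

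The strongest SMAD4 sites were mostly common property, and the group-only sites were concentrated among the weak ones. In Kupffer cell nuclei 65.3% of the 4649 strongest peaks were shared and 14.2% were Kupffer cell-only, whereas of the 4648 weakest 27.6% were shared and 42.9% were Kupffer cell-only. Between the strongest 4243 and the weakest 4242 peaks of BMDM the shared part went from 67.1% to 34.9% and the BMDM-only part from 14.9% to 39.6%. Of the 100 strongest peaks, 83.0% were shared in Kupffer cell nuclei and 90.0% in BMDM. These 100 differed in place: 86.0% of the BMDM peaks but 59.0% of the Kupffer cell peaks lay over 3 kb from a start. A peak was counted as missing wherever it fell under a library's detection limit, and the part of that limit in these shares was not tested.

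Ranked by the mean over all 4 libraries, the strongest shared site lay 365 bp upstream of Skil (chr3:31094604-31094782), which encodes SnoN, a corepressor that SMADs bind and that TGF-beta induces as its own brake. It held 946 and 848 tags in Kupffer cell nuclei and 536 and 361 in BMDM. The other 4 of the 5 strongest shared sites were the Smad6 start described above, a site 37.6 kb upstream of Tgfbr1 (401 and 407 against 558 and 515 tags), a site 15.3 kb upstream of Vps54 (265 and 399.6 against 976 and 814 tags) and a site inside Ppcdc (45.9 and 58.2 against 893 and 964 tags). In BMDM the Ppcdc, Vps54 and Smad6 sites each held more tags than the Skil site in both libraries, and in Kupffer cell nuclei Skil led all 5. Of these sites 3 lie at genes that carry or restrain TGF-beta and BMP signals, and at Ppcdc, which encodes a coenzyme A synthesis enzyme, the BMDM libraries stood far above those of Kupffer cell nuclei.

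Among the strongest Kupffer cell-only sites, 3 lay at Kupffer cell identity genes. The site 22.0 kb into the sequence downstream of the Clec4f start (chr6:83634073-83634251) held 196 and 276 tags, a site in the gene body of Pcolce2, which encodes a procollagen-binding protein, held 204 and 196, and a site in Cdh5, which encodes VE-cadherin, held 223 and 147. The single strongest lay 713 bp downstream of the Skil start (194 and 315 tags), beside the shared Skil site. Cyth1, an exchange factor of small GTPases, had 232 and 214 tags 11.8 kb inside the gene, and St3gal4, a sialyltransferase, had 242 and 217 at its promoter. The other 4 lay at the promoters of Cltc, Sh2b3, Pkm and Gnb2 with 113 to 300.4 tags, but each of these 4, like the Cdh5 site, had a BMDM peak within 500 bp. The Clec4f and Pcolce2 sites had none within 17315 and 170568 bp.

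The strongest BMDM-only sites lay at other genes. The strongest covered the start of Il21r, the interleukin-21 receptor (258 and 340.4 tags, 88 bp from the start), followed by a site in Syngr1 (346 and 191) and a site inside Irak2, a kinase of Toll-like receptor signalling, whose nearest start is that of Tatdn2 (261 and 261). A further site lay 75.1 kb from the start of Vsig4, a complement receptor of Kupffer cells, with 214 and 195 tags. The remaining 6 (near Tmem230, Ppcdc, Kdm1a, Dop1b, Clic4 and Cubn) held 114 to 340.1 tags and lay 14.3 to 82.0 kb from their starts. Of these 10 sites 1 was at a promoter, against 6 of the 10 strongest Kupffer cell-only sites.

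Members of the TGF-beta and BMP pathway are given by role. Each peak was assigned to the nearest start within 100 kb, which does not show that it acts on that gene. Among all 20675 genes with a start, 9953 had a reproducible peak, and counts of list genes with any peak are read against this. Of these 9953 genes, 3408 (34.2%) had a Kupffer cell-only and 2910 (29.2%) a BMDM-only peak. Counts of list genes with a group-only peak are read against these shares. Of 14 ligand genes 4 had a peak: Tgfb1, Tgfb3, Bmp2 and Gdf15. Tgfb3 had 2 Kupffer cell-only peaks in gene bodies 32.7 and 31.4 kb away (39.6 and 59.3 tags, and 11.6 and 33.3), and Bmp2 had a BMDM-only peak 71.5 kb upstream (58.3 and 57.4). Of 12 receptor genes 9 had a peak, 6 of them a Kupffer cell-only peak (Acvr1, Acvr1b, Acvr2b, Acvrl1, Bmpr1a and Tgfbr2) and 3 a BMDM-only peak (Acvr1b, Tgfbr1 and Tgfbr2). Bmpr1a, a receptor of BMP ligands, had its only peak at the promoter, 277 bp upstream, with 61.8 and 43.2 tags in Kupffer cell nuclei and no BMDM peak within 139388 bp.

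The SMAD genes themselves carried SMAD4. Of 8 genes 7 had a peak, 4 a Kupffer cell-only peak (Smad2, Smad4, Smad6 and Smad7) and 0 a BMDM-only peak, with 8 Kupffer cell-only peaks among 30 peaks in all. Smad4 had 25.9 and 25.5 tags 76 bp upstream of its start. The inhibitory Smad7 was bound 179 bp upstream in all libraries, with 289 and 316 tags in Kupffer cell nuclei and 301 and 361 in BMDM, and the groups overlap. Of 18 negative regulators 14 had a peak, 5 of them Kupffer cell-only (Rnf111, Skil, Smad6, Smad7 and Zeb2) and 5 BMDM-only (Ltbp1, Pmepa1, Ski, Smurf2 and Tgif1). Both shares, 35.7%, were near those of all genes. Ski, the relative of Skil, had shared peaks up to 230.2 and 198 tags against 341 and 436, at 4.97 kb inside the gene.

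The genes that SMADs are known to switch on were bound in both cell types. Of 24 SMAD target genes 23 had a peak, 13 (56.5%) a Kupffer cell-only and 10 (43.5%) a BMDM-only peak, and 44 of their 128 peaks were shared. Counted by peaks, 15 (11.7%) were Kupffer cell-only and 25 (19.5%) BMDM-only, beside 18.7% and 17.2% of all peaks assigned to genes. Id1, Id2 and Id3, inhibitors of differentiation and classic BMP targets, all had strong shared sites: 257 and 139.7 against 177 and 135 tags 1.06 kb upstream of Id1, 258 and 319 against 113 and 94.1 tags 2.81 kb upstream of Id2, and 188 and 184 against 193 and 99.1 tags 3.23 kb upstream of Id3. At Id2 alone of these 3 sites the Kupffer cell libraries both lay above the BMDM libraries. In BMDM the strongest site of Id3 was another one, 534 bp upstream, with 307 and 220.5 tags. Only replicate 1 of Kupffer cell nuclei had a peak there (112 tags). Id4 had 1 Kupffer cell-only site 33.2 kb upstream (125 and 58.8 tags), and Hamp, which encodes the iron hormone hepcidin, 1 BMDM-only site (56.5 and 56.0). Runx3, a transcription factor of lymphocytes and some macrophages, had 6 BMDM-only peaks and 3 shared peaks and no Kupffer cell-only peak, and its strongest BMDM-only peak, 40.5 kb downstream, held 113 and 131 tags. Runx1 had 7 BMDM-only peaks and 1 Kupffer cell-only peak.

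Kupffer cell identity genes carried many more Kupffer cell-only sites than genes at large. Of 30 genes 28 had a peak (all but Clec2i and Spic), 24 (85.7%) had a Kupffer cell-only peak and 9 (32.1%) a BMDM-only peak. Of their 132 peaks, 60 (45.5%) were Kupffer cell-only and 9 (6.82%) BMDM-only, against 4715 (18.7%) and 4325 (17.2%) of all 25200 peaks assigned to genes. The list was drawn up as genes known to mark Kupffer cells, with earlier results of these data known, and the difference from all genes was not tested. In 8 of the genes (Paqr9, Clec4f, Slc16a9, Timd4, Marco, Pcolce2, C6 and Arhgef37) every reproducible peak was Kupffer cell-only. Hmox1, Cd163, Clec1b and Cd207 had a peak but no Kupffer cell-only one.

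**Figure D2:**
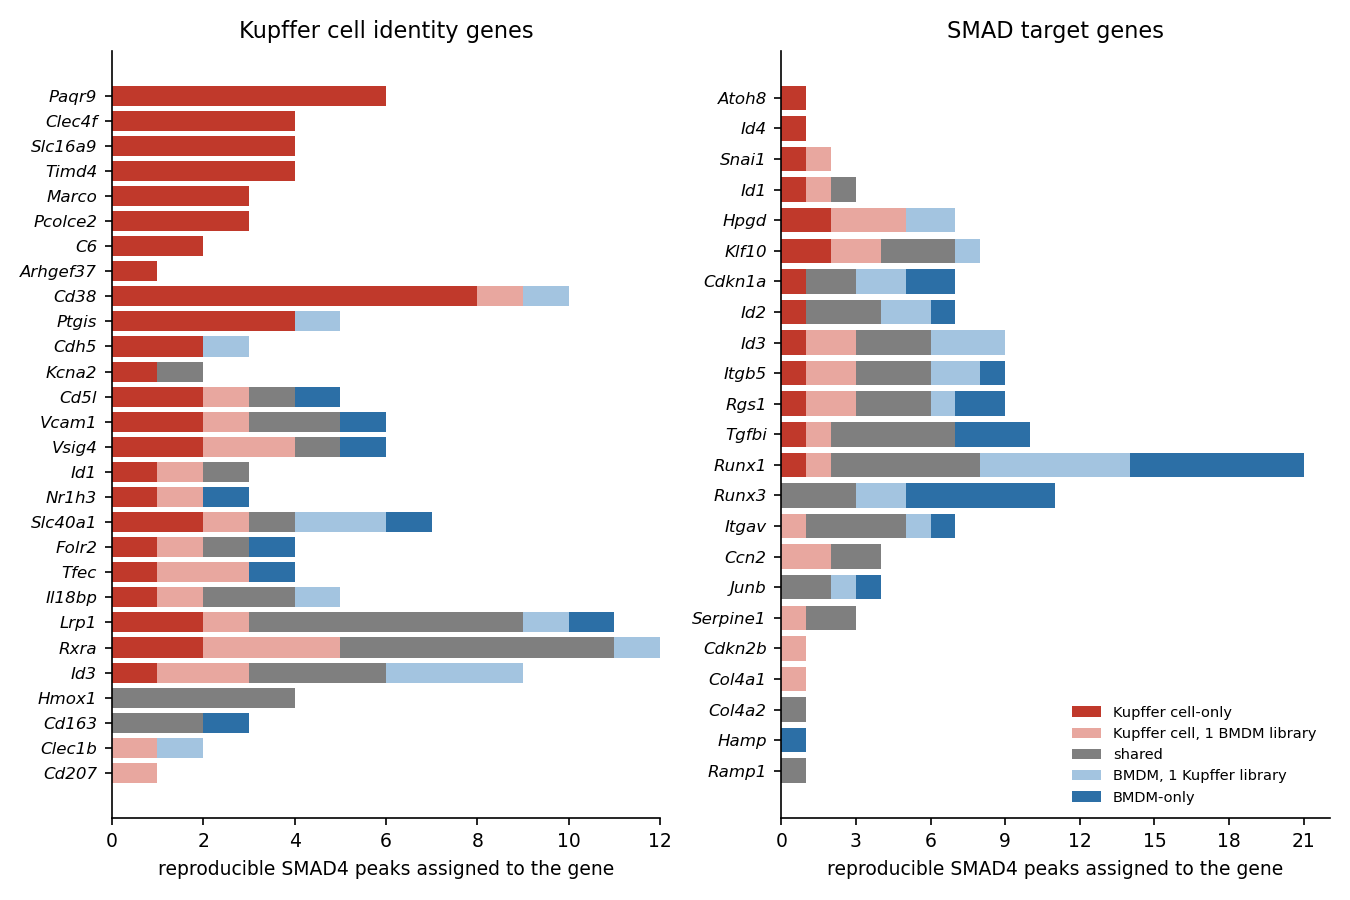
Reproducible SMAD4 peaks assigned to each Kupffer cell identity gene (left) and SMAD target gene (right), as stacked counts of peaks by overlap class (horizontal axis, number of peaks). Genes are ordered by the Kupffer cell-only share: red bars fill the upper rows on the left, while Runx1 and Runx3 on the right carry 7 and 6 BMDM-only peaks in dark blue.

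At Clec4f, which encodes a lectin that marks Kupffer cells, 4 Kupffer cell-only sites lay at the promoter and at 19.6, 22.0 and 24.0 kb, with 281 and 139 tags at 19.6 kb and 88.2 and 149 at 24.0 kb. Timd4 had 4 such sites, the strongest at its promoter, and no BMDM peak within 314917 bp of any of them. Cd38 had 8 Kupffer cell-only sites between 21.1 kb upstream and 11.9 kb inside the gene, the strongest 12.8 kb upstream with 31.1 and 94.8 tags. Slc16a9, a membrane transporter, had 102 and 104 tags 1.98 kb upstream of its start. Paqr9 had 6 such sites, the strongest 13 kb downstream with 104 and 115 tags. Marco, a scavenger receptor, had 3, from 17.9 and 16.6 to 25.9 and 45.5 tags. Neither BMDM list holds a peak that overlaps the sites named here.

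Other identity genes mixed the classes. Nr1h3, which encodes the nuclear receptor LXR-alpha, had 190.1 and 128 tags in Kupffer cell nuclei at its promoter against 21.5 tags in 1 BMDM library, and a pair of sites 6 bp apart, 1.73 and 1.92 kb upstream, of which 1 was called in Kupffer cell nuclei (80.2 and 88.7 tags) and the other in BMDM (90.6 and 190.3). Lrp1, an endocytic receptor, had a similar pair 46 bp apart with 175 and 157 tags in Kupffer cell nuclei and 149.8 and 144 in BMDM, so its Kupffer cell-only and BMDM-only peaks there are neighbours rather than separate regions. Cd5l, a secreted scavenger protein, had weak Kupffer cell-only sites (9.5 and 33.8 tags 6.61 kb upstream, and 9.5 and 19.4 tags 1.03 kb upstream) beside a shared site at 19.7 kb (33.3 and 70.4 against 111 and 102 tags). Vsig4 had a Kupffer cell-only site at its promoter (11.6 and 36.0 tags) in addition to the distant BMDM-only site.

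Genes of the macrophage state were bound in both groups. Of 30 macrophage lineage factors 27 had a peak, 19 (70.4%) with a Kupffer cell-only and 18 (66.7%) with a BMDM-only peak, which are genes with many peaks (215 in all). Of 14 AP-1 factors all 14 had a peak, 6 (42.9%) with a Kupffer cell-only and 9 (64.3%) with a BMDM-only peak. Of 18 general macrophage genes all 18 had a peak, 6 with a Kupffer cell-only and 10 with a BMDM-only peak, and of 19 monocyte genes 14 had a peak, 4 with a Kupffer cell-only and 8 with a BMDM-only peak. Counted by peaks, 13.5% at lineage factors were Kupffer cell-only and 20.5% BMDM-only. These peak shares were 11.9% and 16.7% at AP-1 factors, 11.6% and 20.0% at general macrophage genes and 16.3% and 26.5% at monocyte genes. All peaks assigned to genes gave 18.7% and 17.2%. Mef2c had 2 peaks, both BMDM-only (54.7 and 61.8 tags, and 102 and 84.0). Of 17 bound LXR targets 13 (76.5%) had a Kupffer cell-only and 4 (23.5%) a BMDM-only peak, and by peaks the shares were 27.7% and 7.23%. In the Notch list, Hes1, a repressor that Notch induces, had 9 Kupffer cell-only peaks and no BMDM-only peak, and a peak 1.07 kb upstream held 209.6 and 149 tags against 16.2 in 1 BMDM library.

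Markers of other liver and blood cells had some peaks too, and the part of such cells in the results was not tested. Peaks lay near 2 of 12 hepatocyte markers, 7 of 12 liver endothelial, 2 of 10 stellate, 4 of 12 neutrophil, 4 of 12 lymphocyte and 4 of 8 erythroid and megakaryocyte markers, and near 8 of 10 dendritic cell markers. Among all 20675 genes with a start, 9953 had a peak. Alb, Hnf4a, Lrat, Col1a1, Ly6g, Cd3e and Gata1 had no reproducible peak in either group. Summed over the 14 endothelial peaks the tags were 287 and 382 in Kupffer cell nuclei and 690.0 and 651 in BMDM, and over the 5 hepatocyte peaks 85.0 and 83.6 against 204 and 167. The 6 neutrophil peaks summed to 204 and 171 against 216 and 63.9 tags. Kupffer cell-only peaks lay near 4 endothelial markers, chosen for naming after their values were seen: Stab2 (14.8 to 29.9 tags), Cldn5 (15.8 and 34.9), Lyve1 (40.1 and 54.3, with a BMDM-only peak 186 bp away) and Pecam1 (27.5 and 38.8). BMDM-only peaks lay near 3 endothelial markers, Egfl7, Kdr and Lyve1, and each class held 5 (35.7%) of the 14 endothelial peaks. Cdh5, the gene of VE-cadherin (vascular endothelial cadherin), was counted under Kupffer cell identity and not here. Its Kupffer cell-only site held 223 and 147 tags. The shared site 31.0 kb upstream of Egfl7, a secreted factor of endothelial cells, held 86.6 and 64.9 tags in Kupffer cell nuclei and 285 and 328 in BMDM, and was weaker under both scalings of the strength test below (log2 difference as deposited -2.01, SE 0.43, limma adjusted p = 0.000521). At Pdgfrb, a stellate cell marker, 1 site was weaker as deposited only (43.3 and 49.3 against 197 and 113 tags). Neither call held without replicate 1 or without replicate 2 of BMDM. S100a8 and Csf3r, genes of neutrophils and monocytes and likewise named afterwards, had Kupffer cell-only promoter peaks of 46.5 and 41.0 and of 29.6 and 43.8 tags.

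Signal strength was compared at the 8600 merged intervals with a peak in all 4 libraries, with limma on log2 of the tag count plus 1. As deposited, SMAD4 was stronger in Kupffer cell nuclei at 91 intervals (1.06%) and weaker at 724 (8.42%), at an adjusted p under 0.05 and a 2-fold difference. This split follows the scaling: the median interval lay 0.57 lower in Kupffer cell nuclei on the log2 scale, and with each library centred on its median 500 intervals (5.81%) were stronger and 335 (3.90%) weaker. All 91 stronger and 335 of the 724 weaker intervals were called under both scalings. In 921 intervals (10.7%) both Kupffer cell libraries lay above both BMDM libraries and in 3810 (44.3%) below. Promoters made up 53.8% of the stronger intervals, 14.6% of the weaker ones and 33.0% of all intervals tested.

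The fit gave intervals of like level 1 common spread, so an interval's own libraries hardly set its error. The counts lean on single libraries: without replicate 1 of BMDM they were 15 stronger and 13 weaker, without replicate 2 of BMDM 23 and 51, without replicate 1 of Kupffer cell nuclei 81 and 335, and without replicate 2 of Kupffer cell nuclei 104 and 1937.

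**Figure D3:**
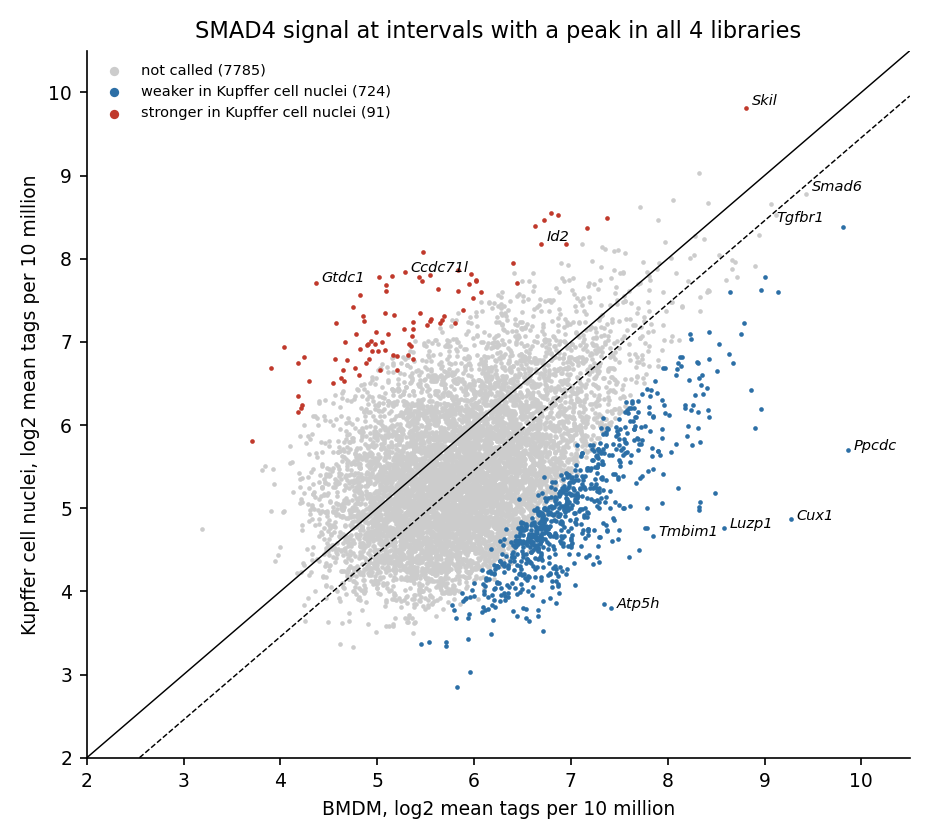
SMAD4 strength at the 8600 intervals with a peak in all 4 libraries, as log2 of the mean tags per 10M in BMDM (horizontal axis) and Kupffer cell nuclei (vertical axis), 1 point per interval. The solid line is equality and the dashed line the median difference. Of the points, 91 are called stronger (red) and 724 weaker (blue), with Skil at the top and Ppcdc and Cux1 at the lower right.

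The intervals that were most strongly raised in Kupffer cell nuclei were mostly promoters, and none lay at a gene of the lists used here. Of the 10 named by rule, 8 lay within 200 bp of a start: Gtdc1, Ccdc71l, Tut7, Cdkn2aip, Tsga10, Slc44a1, Klf13 and Ndfip2. The Gtdc1 promoter held 315 and 105 tags in Kupffer cell nuclei and 19.7 and 21.5 in BMDM, a log2 difference of 3.09 (SE 0.58, limma adjusted p = 5.01e-05). Tut7, which adds uridines to RNA ends, had 181 and 261 against 17.9 and 53.1 tags (log2 difference 2.77, SE 0.54, limma adjusted p = 8.47e-05). Klf13, a zinc-finger factor, had 183 and 208 against 38.6 and 29.4 tags (log2 difference 2.50, SE 0.54, limma adjusted p = 0.000567). The 2 others lay 47.6 kb from Ccdc186 and 50.5 kb from Prdm2. In each of these 10 both Kupffer cell libraries lay above both BMDM libraries, as the rule for naming required.

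The largest differences toward BMDM were mostly distal. A site inside Cux1, a homeobox gene, held 19.5 and 38.8 tags in Kupffer cell nuclei and 741 and 496 in BMDM, 83.4 kb from the start, a log2 difference of -4.41 (SE 0.46, limma adjusted p = 1.18e-17). The Ppcdc site described above differed by -4.14 (SE 0.37, limma adjusted p = 1.52e-25), or 17.6-fold. A site in Luzp1 had 23.2 and 31.0 against 438 and 329 tags (log2 difference -3.77, SE 0.51, limma adjusted p = 4.88e-10). The other 7 lay near Atp5h, Tmbim1, Btd, Ms4a14, Polr2e, Slc25a33 and Spata32, with log2 differences of -3.56 to -3.27, and of the 10 the Polr2e site alone lay at a promoter. Without replicate 1 of BMDM 7 of the 20 named intervals no longer passed, and without replicate 2 of BMDM 1 did not.

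Within the pathway, identity, lineage and AP-1 lists 19 intervals passed as deposited, 4 stronger and 15 weaker, and these calls rest on both BMDM libraries. Without replicate 1 of BMDM 18 of the 19 no longer passed, all but the Skil site 366 bp upstream, and without replicate 2 of BMDM none of the 19 passed. Without replicate 1 of Kupffer cell nuclei 6 were lost and without replicate 2 of Kupffer cell nuclei 2, Itgav and Cebpd. The Skil site 366 bp upstream was 2.03-fold stronger in Kupffer cell nuclei (log2 difference 1.02, SE 0.23, limma adjusted p = 0.000648), while another 10.9 kb upstream of Skil was weaker as deposited (19.5 and 59.9 against 117 and 112 tags, log2 difference -1.71, SE 0.58, limma adjusted p = 0.0411) but not after centring. The Id2 site 2.81 kb upstream was 2.76-fold stronger (log2 difference 1.47, SE 0.41, limma adjusted p = 0.0108). Itgav, an integrin subunit that activates TGF-beta, was stronger at its promoter (66.5 and 119 against 23.3 and 27.3 tags, limma adjusted p = 0.0498), and Cebpd, a myeloid transcription factor, was stronger 2.85 kb downstream of its start (97.7 and 187 against 47.6 and 30.2 tags, limma adjusted p = 0.0229). Itgav also had a site 9.46 kb upstream that held more tags and went the other way, with 233 and 206 against 440.5 and 398. It was not called under either scaling (as deposited log2 difference -0.93, SE 0.32, limma adjusted p = 0.0407, 1.91-fold). After centring the 4 stronger sites were called too, but the Itgav promoter was not with the replicate block or with edgeR and total tags, and the Skil site 366 bp upstream was not without replicate 1 of Kupffer cell nuclei.

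In the pathway, identity, lineage and AP-1 lists, sites weaker under both scalings lay at Atf3, Cdkn1a, Itgb5, Klf6, Mafg and Mef2a. Atf3, a stress-induced AP-1 family factor, had 3 of them, at 14.7, 18.1 and 65.3 kb upstream, with 26.9 and 31.0 against 173 and 174 tags at the first (log2 difference -2.55, SE 0.56, limma adjusted p = 0.000648). Itgb5 had 88.2 and 106 against 354 and 299.5 tags 7.11 kb inside the gene (log2 difference -1.74, SE 0.40, limma adjusted p = 0.00132). Besides the Skil site 10.9 kb upstream, sites at Fos, Id3, Lrp1, Runx1, Smad3 and Zeb2 were weaker as deposited only. The Id3 site in question lay 26.6 kb upstream (52.3 and 46.0 against 185 and 125 tags), whereas its site 3.23 kb upstream did not pass in either direction.

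Counts by list are read against all 8600 intervals tested. Of these, 1.06% were stronger and 8.42% weaker by limma, and 5.81% and 3.90% with centring. At an unadjusted p under 0.05, 299 of the 8600 were higher and 1906 lower, and edgeR with total tags gave 70 and 549. By list, 2 of 45 intervals at SMAD targets were stronger and 4 weaker, and centring gave 3 and 2. At negative regulators 1 of 27 was stronger and 2 were weaker, and centring gave 5 stronger (at Bambi, Skil, Smad6 and Smad7) and 0 weaker. At SMAD genes 0 of 12 were stronger and 1 was weaker by limma, 2 and 5 at an unadjusted p under 0.05, and 0 and 0 by edgeR on the recovered tags, and centring gave 3 stronger (at Smad6 and Smad7) and 0 weaker. At receptors 0 of 13 passed by limma or edgeR, with 0 higher and 4 lower at an unadjusted p under 0.05. The fit took only intervals with a peak in all 4 libraries, so the 60 Kupffer cell-only peaks at identity genes could not enter. Of the 31 intervals tested at Kupffer cell identity genes 0 were stronger and 2 weaker by limma. At an unadjusted p under 0.05 there were 3 and 7, and by edgeR 0 and 1. Centring gave 3 stronger (at Rxra and Slc40a1) and 0 weaker. Of 34 at AP-1 factors 0 were stronger and 5 weaker by limma and by edgeR, 1 and 10 at an unadjusted p under 0.05, and centring gave 1 stronger and 4 weaker. Median log2 differences as deposited were -0.57 at SMAD targets, -0.17 at SMAD genes, -0.31 at Kupffer cell identity genes and -0.77 at AP-1 factors, beside -0.57 over all intervals tested.

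At the Kupffer cell-only SMAD4 sites far from starts H3K27ac was mostly higher in Kupffer cells, in libraries that had no part in forming the classes. Regions with a median length of 2001 bp were tested with edgeR in Kupffer cells against Ly6C-high monocytes and against RLM, and regions that overlap SMAD4 peaks were counted beside all of them. Of 80982 regions tested, 20184 (24.9%) were higher and 14353 (17.7%) lower in Kupffer cells than in monocytes, and 18043 (22.3%) were higher and 11283 (13.9%) lower than in RLM. Of 4299 regions at Kupffer cell-only sites over 3 kb from a start, 61.4% were higher and 4.65% lower than in monocytes, with a median log2 difference of 1.70, and 59.5% were higher and 2.35% lower than in RLM. At shared distal sites 43.3% were higher and 10.2% lower than in monocytes, and at BMDM-only distal sites 20.8% were higher and 32.9% lower. Without replicate 2 of the Kupffer cells 5333 regions were lower than in RLM. Monocytes and RLM are not BMDM, neighbouring regions overlap, and both comparisons share the Kupffer cell libraries. The shares of all regions mix promoter and distal regions, so they are not matched to the distal classes by place.

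**Figure D4:**
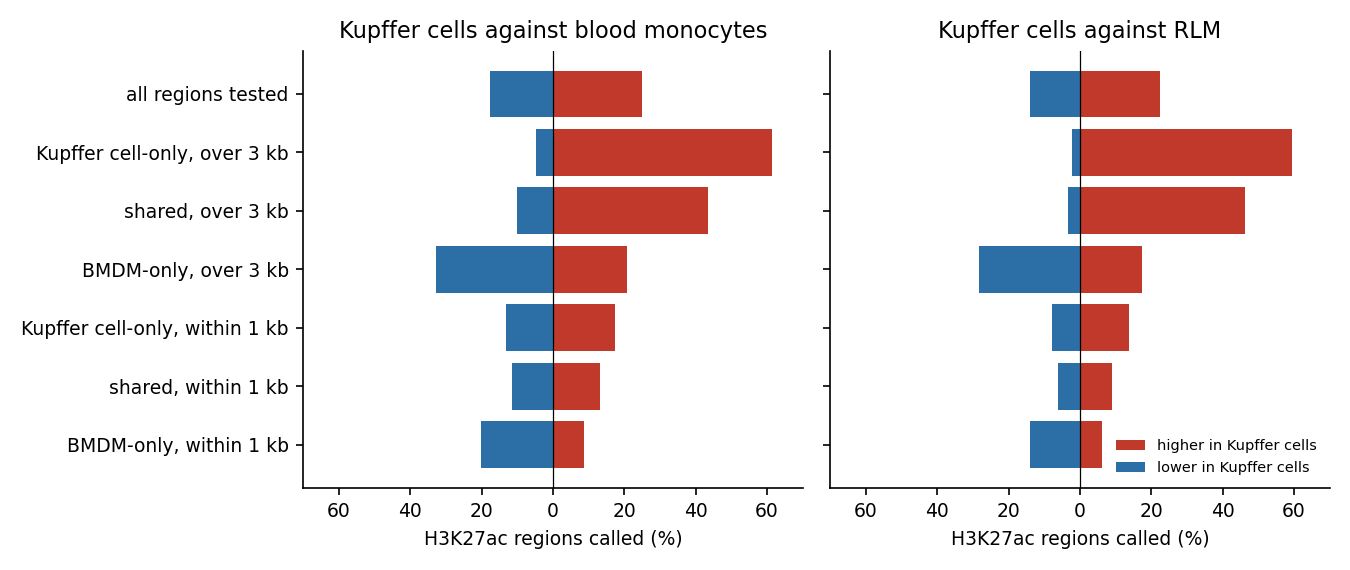
Share of H3K27ac regions called higher (red, to the right) or lower (blue, to the left) in Kupffer cells against monocytes (left panel) or RLM (right panel), in percent, for all regions tested and for regions at SMAD4 peaks over 3 kb from or within 1 kb of a start. Kupffer cell-only distal sites reach 61.4% and 59.5% higher, while the classes within 1 kb of a start stay below 20% in both directions, except for 20.1% lower than monocytes at BMDM-only promoters.

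Promoter sites showed little of this. Within 1 kb of a start, 17.4% of the regions at Kupffer cell-only sites were higher and 13.1% lower than in monocytes, and 13.3% and 11.6% at shared sites. Both lie below the shares of all regions, which take in distal regions too and are not matched by place. At BMDM-only promoters 8.73% were higher and 20.1% lower.

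At 4 of the Kupffer cell-only sites, picked from those named above, the acetylation was low in monocytes and RLM. They do not stand for the class. Of all 5337 Kupffer cell-only sites, 67.2% overlapped an H3K27ac region listed for RLM, 63.0% one for monocytes and 77.1% one for untreated BMDM. At the Clec4f site 22.0 kb downstream H3K27ac was 28.0 and 34.1 counts per 1M counted tags (CPM) in Kupffer cells, 0.989 and 0.165 in monocytes and 0.262 and 0.811 in RLM, a log2 difference from RLM of 5.75 (SE 0.43, edgeR adjusted p = 5.38e-18). At the Timd4 promoter it was 45.7 and 55.7 CPM in Kupffer cells, 1.32 and 0.165 in monocytes and 1.18 and 0.71 in RLM. Pcolce2 at 45.2 kb (43.5 and 72.9 CPM against 0.907 and 0.741 in monocytes and 1.18 and 1.93 in RLM) and the Bmpr1a promoter (28.0 and 21.7 CPM against 0.412 and 0 in monocytes and 1.7 and 3.04 in RLM) had the same form. In the separately normalized BMDM table these regions of Timd4, Pcolce2 and Bmpr1a held at most 1.08 CPM in untreated BMDM. The Pcolce2 site nevertheless overlaps an H3K27ac region listed for RLM and one listed for untreated BMDM.

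Other sites had the mark elsewhere as well. The Id2 site that bound more SMAD4 in Kupffer cell nuclei had 100.1 and 121 CPM in Kupffer cells and 95.0 and 97.8 in RLM, which did not pass (log2 difference 0.20, SE 0.19, edgeR adjusted p = 0.407), but 4.21 and 5.68 in monocytes (log2 difference 4.48, SE 0.24, edgeR adjusted p = 1.09e-26). At the Id3 site 3.23 kb upstream it was 47.3 and 62.9 CPM in Kupffer cells, 14.7 and 15.3 in RLM and 2.31 and 2.14 in monocytes, and both differences passed. At the strong Skil site it was 88.4 and 79 CPM in Kupffer cells, 134 and 116 in RLM and 47.4 and 54.3 in monocytes, and neither difference reached 2-fold (log2 differences 0.72 from monocytes and -0.58 from RLM). At the BMDM-only Runx3 site 40.5 kb downstream it was 0.833 and 0.176 CPM in Kupffer cells and 3.13 and 4.45 in monocytes, a log2 difference of -3.15 (SE 0.56, edgeR adjusted p = 1.74e-06). In untreated BMDM, where SMAD4 had its peak, that Runx3 region held just 0.767 and 1.58 CPM, and 9.03 and 10.0 in BMDM given the Notch ligand DLL4. The Vsig4 site 75.1 kb away had 0.476 and 0.117 CPM in Kupffer cells and 33.4 and 36.5 in untreated BMDM, each in its own table.

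Overlap with the deposited peak lists of other factors differed between the classes, and for each list given here it was highest at the shared sites. Peaks of LXR, the nuclear receptor of oxysterols, in Kupffer cells lay on 55.7% of the Kupffer cell-only, 72.3% of the shared and 9.84% of the BMDM-only SMAD4 sites. Peaks of RBPJ, the DNA-binding partner of Notch, in BMDM lay on 41.0%, 93.3% and 88.5% of them, and those in Kupffer cell nuclei on 11.8%, 28.0% and 1.56%. An H3K27ac region listed for Kupffer cells covered 91.3% of the Kupffer cell-only sites and 46.7% of the BMDM-only sites, and one listed for untreated BMDM covered 77.1% and 93.0%. The lists differ in length, from 5444 to 81691 entries, so shares compare across the SMAD4 classes and not across the marks. Kupffer cells of the LXR list were also from Clec4f-cre mice.

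Promoter sequence was compared over windows of 300 bases (250 before to 50 after the start), by exact letters on both strands, for starts with a peak centre inside. GGCGCC was in 30.2% of 863 Kupffer cell-only promoters, 27.3% of 1794 shared ones, 13% of 276 BMDM-only ones and 15.3% of all 21263. GC content ran alongside, with medians of 63.3%, 64.0%, 57.0% and 56.3%, and its part in the GGCGCC shares was not tested. CAGAC was in 45.0%, 51.9%, 47.5% and 48.4%, close to the share of all promoters in each class. GTCTAGAC was rare: 2 Kupffer cell-only, 7 shared and 0 BMDM-only promoters held it, against 48 (0.226%) of all. GGAAGT was in 32.8%, 38.7%, 34.4% and 24.8%. A match describes letters and not a bound site, and distal sites were not searched because no genome sequence was used here.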

How the data were processed

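SMAD4, LXR, RBPJ and H3K27ac ChIP-seq samples of mouse macrophages were grouped by their titles, 2 libraries per group. Per the submitters' processing notes, the authors used Bowtie2, HOMER and the build mm10, without versions. Per the file headers, HOMER findPeaks called each SMAD4 list in its factor style with an input library, requiring 4-fold enrichment over both input and the surrounding 10000 bp, a Poisson p of 0.0001 and an FDR of 0.001. The deposited strength is a signal, tags in the peak per 10M. The deposited fold over input is a ratio and served only as a filter. The H3K27ac values the authors deposited are raw tag counts per region, 7.37M to 19.5M per library in the table tested. Per the file headers, replicate 2 of SMAD4 in Kupffer cell nuclei shares its input with an RBPJ library.

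Peaks of a group were merged at 1 bp overlap. Starts came from the RefSeq promoter table (17492 genes) or were inferred from the deposited annotation (3183), for 20675 of 21900 coding genes, and 94.2% of the starts given by both lay within 100 bp. SMAD4 strength, log2 plus 1, was tested with limma 3.58.1 (trend, robust), and H3K27ac with edgeR 4.0.16 (quasi-likelihood, TMM, filterByExpr, 6 libraries in 1 fit) in R 4.3.3, with Benjamini-Hochberg adjustment. A difference was called at adjusted p under 0.05 and 2-fold. The scripts were tested on simulated data. DESeq2 1.42.0, other scalings, filters, a replicate block and left-out libraries were alternatives. Named by rule were the 10 largest called differences per direction with separated libraries and above-median level, the 10 strongest peaks of each group-only class, the 5 strongest shared peaks, and members of the pathway, identity, lineage and AP-1 lists, with the strongest peak per group of other lists. Members and lists were chosen with earlier results of these data known.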

Additional observations from a re-analysis of the deposited data

How the results depend on the processing

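The direction of the place difference held under every overlap and filter tried, while the sizes of the classes and the counts of the fit moved. Shared peaks were 42.0% of Kupffer cell and 46.0% of BMDM peaks when 50% of the shorter interval had to overlap, with 61.0% of Kupffer cell-only and 77.8% of BMDM-only peaks over 3 kb from a start. At 8-fold or more over input these 4 shares were 28.9%, 49.7%, 57.1% and 83.6%, and 9882 BMDM peaks remained. With 25369 peaks per library the shared shares were 40.8% and 46.8%, and 59.4% of Kupffer cell-only peaks were distal. With a gap of up to 500 bp taken as overlap, chosen after seeing the data, the 4 shares were 47.6%, 51.4%, 68.7% and 83.7%. Leaving out 1 library at a time, a group was represented by its other library alone: peaks ranged from 18593 to 37180 in Kupffer cell nuclei and 16969 to 37103 in BMDM, shared shares from 30.5% to 62.4% and 31.3% to 66.8%, and distal shares of the group-only peaks from 58.8% to 71.7% and 76.5% to 79.6%.

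Of the fit, stronger and weaker intervals numbered 500 and 335 with median-centred libraries, 465 and 398 with quantile normalization, and 434 and 276 with edgeR on the recovered tags and TMM, the last chosen after seeing the data. With total tags edgeR gave 70 and 549, and all of the authors' values gave whole tags within 0.1 of a tag. All 20 named intervals kept direction and call under the other scalings, edgeR and the block. Of the 19 called intervals of the pathway, identity, lineage and AP-1 lists, 7 lost the call with centring, 5 with quantile normalization, 5 with the block, 4 with edgeR and total tags and 10 with edgeR and TMM, 2 to 19 when 1 library was left out, and none turned direction. Of the 20 named intervals, at 8-fold or more over input 12 could be tested and kept their calls. Leave-one-out counts ran from 15 to 104 stronger and 13 to 1937 weaker, where the lone library of an arm is assumed to vary like the others. Fewer H3K27ac regions, 7507, were lower in Kupffer cells than in RLM with DESeq2, and 5333 to 11916 when 1 library was left out. The cause of these shifts was not tested. Groups of 2 libraries and the callers' thresholds limit what can be detected.

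Replicate numbers do not pair the samples: deviations of same-numbered SMAD4 libraries correlated at 0.00492. With a replicate block 53 intervals were stronger and 486 weaker, and the H3K27ac counts were 20112 higher and 13961 lower than in monocytes and 17927 higher and 10699 lower than in RLM.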

Other observations

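At general macrophage genes the calls as deposited were all toward BMDM, beside 1.06% stronger and 8.42% weaker of all intervals tested. Of 41 intervals at general macrophage genes 0 were stronger and 9 weaker in Kupffer cell nuclei by limma, 1 and 18 at an unadjusted p under 0.05 and 0 and 5 by edgeR, but with centred libraries 2 were stronger (at C1qa and C1qb, complement genes) and 2 weaker (both at Cd9, a tetraspanin). Of all 8600 intervals, 299 were higher and 1906 lower at an unadjusted p under 0.05, and 70 and 549 passed by edgeR. The median log2 difference at general macrophage genes was -1.04 as deposited and -0.48 centred, beside -0.57 and -0.01 over all intervals. In the Notch list, with 19 intervals and a median of -0.39, the 3 weaker sites all lay at Notch1, a Notch receptor, the one 20.5 kb inside the gene with 69.7 and 69.3 tags per 10M against 315 and 202 (log2 difference -1.84, SE 0.46, limma adjusted p = 0.00348). Of 33 intervals at LXR targets 1 was stronger, at Apoc1, and 3 were weaker, at Abca1, Apoe and Ch25h. Centring gave 3 stronger (at Apoc1, Scd2 and Srebf1) and 1 weaker (at Abca1). The site of Apoc1, an apolipoprotein gene that LXR induces, lay 913 bp upstream of its start, with 159 and 143 against 33.2 and 49.6 tags (log2 difference 1.87, SE 0.55, limma adjusted p = 0.0157). None of the 22 calls as deposited at list genes outside the pathway, identity, lineage and AP-1 lists held without replicate 1 of BMDM or without replicate 2 of BMDM. These genes were chosen for naming after their values were seen.

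Some genes gathered many group-only sites, and they too were picked by their counts. Kupffer cell-only peaks were most numerous at Dnmt3a, a DNA methyltransferase (12 of 20 peaks), and Sema6d, a semaphorin (10 of 14). BMDM-only peaks were most numerous at Plec, a cytoskeletal linker (9 of 11), and Sgms1, a sphingomyelin synthase (9 of 22), and at Slc41a2, a magnesium transporter, all 8 peaks were BMDM-only. Plekho2 had the most shared peaks, 12 of 18.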
